A study of Mus musculus with 4 samples.

Results

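The transcripts of 7 genes of steroid synthesis were followed in mouse hindlimb buds, namely the 3-beta-hydroxysteroid dehydrogenases Hsd3b6, Hsd3b1, Hsd3b2, Hsd3b3 and Hsd3b7 and the genes of the entry step, Cyp11a1 and Star. They are 7 of the 25239 gene symbols in the deposited count table and were selected on symbol. Hsd3b6 drew attention through its difference in counts between anterior and central cells, so the group was picked from results of this same contrast. The differences of the 7 genes between the populations are therefore given as descriptions, without a p-value, and the intervals beside some of them cover counting error only. RNA came from FVB mouse embryos at embryonic day 11.5, labelled wild-type in genotype, all of which carried the reporter H11 hsp68-hZRS(404G>A)-mCherry. In this transgene at the H11 locus, a human ZRS enhancer with the 404G>A base change and the hsp68 promoter drive the red fluorescent protein mCherry, and the ZRS is the limb enhancer of Shh. Anterior cells that were mCherry+ and central cells that were mCherry- were dissected, dissociated and sorted, with 2 libraries of each population. The promoter and enhancer thus define the anterior group by reporter activity, and both groups share the transgene. The central cells differ from the anterior ones in position as well as in mCherry, and the 2 cannot be told apart in this design.

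Steroid hormones are made from cholesterol. The protein StAR carries cholesterol to the inner mitochondrial membrane, the side-chain cleavage enzyme encoded by Cyp11a1 turns it into pregnenolone, and a 3-beta-hydroxysteroid dehydrogenase converts pregnenolone to progesterone. These enzymes are known mainly from adrenal gland, gonad and placenta, and the mouse has a cluster of closely related Hsd3b copies that differ in tissue. The limb bud is not known as a steroid-producing organ.

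Sequences are shown first because the copies are so alike that a count for one of them depends on how well reads tell them apart. Hsd3b6 (ENSMUSG00000027869.14) lies on the minus strand of chromosome 3 at chr3:98805504-98814443 (GRCm38, GENCODE M21), and Hsd3b1 (ENSMUSG00000027871.16) on the same strand at chr3:98852194-98859794. Both coding sequences are 1119 bases long and 90.0% identical. The 100-base stretch of coding sequence with the fewest differences between them is printed here, 5′ to 3′, with the differing bases in capitals. It lies in exon 3 of Hsd3b6 (chr3:98807772-98807871) and in exon 4 of Hsd3b1 (chr3:98856001-98856100), counted in the transcript with the longest coding sequence, and holds 3 differences.
Hsd3b6: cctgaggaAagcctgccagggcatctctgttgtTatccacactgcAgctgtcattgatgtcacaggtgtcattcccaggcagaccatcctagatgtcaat
Hsd3b1: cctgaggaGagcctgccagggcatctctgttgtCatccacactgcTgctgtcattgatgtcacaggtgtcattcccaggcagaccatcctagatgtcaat

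Across the 822 windows of 100 coding bases that aligned without gaps inside a single exon, Hsd3b6 and Hsd3b1 differed at a median of 9 bases and at 3 to 18 bases. No 100-base stretch of the Hsd3b1 transcript occurred in a transcript of another gene. Hsd3b6 was closer to Hsd3b2 (94.4% coding identity) and Hsd3b3 (94.5%), and 56 of its 1703 transcript stretches of 100 bases (3.29%) also occurred in one of these copies. The shares were 8.51% for Hsd3b2 and 17.2% for Hsd3b3, where some matches were to genes outside the family. Counts of Hsd3b2 and Hsd3b3 are thus less certain than those of Hsd3b6. Hsd3b7 on chromosome 7 had only 54.4% coding identity to Hsd3b6.

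The 250 bases before the annotated start of Hsd3b6 and of Hsd3b1 are printed next (RefSeq, GRCm38.p6, minus strand), because these neighbouring copies had very different counts in the anterior libraries. Capitals mark matches on either strand to a motif read by the erythroid factor Gata1 and its relatives, spelled AGATAA, and to the box read by Krüppel-like factors such as Klf1, spelled CCACCC. The letters of these motifs cannot overlap each other. Only these exact spellings were marked, so near spellings, such as the tgatag in the Hsd3b1 window, are not. The Hsd3b6 window is chr3:98814444-98814693 and the Hsd3b1 window is chr3:98859795-98860044.
Hsd3b6: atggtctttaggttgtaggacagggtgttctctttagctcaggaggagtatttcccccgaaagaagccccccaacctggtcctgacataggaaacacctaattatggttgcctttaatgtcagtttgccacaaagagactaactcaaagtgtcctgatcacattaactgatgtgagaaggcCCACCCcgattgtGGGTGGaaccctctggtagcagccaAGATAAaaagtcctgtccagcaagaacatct
Hsd3b1: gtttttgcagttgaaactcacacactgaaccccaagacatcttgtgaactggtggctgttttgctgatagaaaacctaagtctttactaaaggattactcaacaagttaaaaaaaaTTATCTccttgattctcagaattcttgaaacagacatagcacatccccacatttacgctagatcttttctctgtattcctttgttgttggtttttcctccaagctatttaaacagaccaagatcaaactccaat

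In the Hsd3b6 window the Gata1-type match began 31 bases before the start and the matches to the Klf1-type box began 69 and 56 bases before it. In the Hsd3b1 window the lone match to the exact letters AGATAA began 134 bases before the start and the letters CCACCC did not occur. The other genes had matches too: the Klf1-type letters began at position -44 from the start of Hsd3b7, and at -183 and -175 from 2 annotated starts of Cyp11a1. The Gata1-type letters began at -242 and -243 from 2 annotated starts of Hsd3b3 and did not occur for Hsd3b7, Cyp11a1 or Hsd3b2. For the related copy Hsd3b4 they began at -222 from an annotated start and did not occur at another. The Gata1-type letters occurred in 9.99% and the Klf1-type letters in 28.1% of 32851 windows of the same length over 27025 genes. The letters AAGGTCA, a half-site read by nuclear receptors such as SF-1, were searched in the same way and were in none of these windows and in 4.08% of all windows. Promoter entries were found for 6 of the 7 genes. The motifs were chosen with earlier results of these data known, and the matches describe letters only.

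Each library held between 30080925 and 33257383 counts. Levels are given as CPM, which are counts scaled to the size of the library after TMM normalization, and as mean ± SD over 2 libraries. Low counts were mostly even numbers (72.8% to 75.6% of the counts from 1 to 10), as if each fragment had been counted once per mate, so 2 counts may stand for a single fragment. A level of 3 counts or fewer in a library was treated as the floor, which was 0.0899 to 0.102 CPM. Limb mesenchyme genes were read in every library, with sums over 10 listed genes of 3209 and 3179 CPM in the anterior and 2141 and 1977 CPM in the central libraries. Of these 10, 5 were called higher in anterior cells, 1 lower and 4 not at all, beside 10.7% higher and 12.3% lower over all genes tested (edgeR, as below). Prrx2, a homeobox gene of limb mesenchyme, was among those higher, at 308 ± 15.9 CPM in anterior and 82.0 ± 13.8 in central cells. Among those not called, Prrx1 measured 696 ± 28.8 CPM in anterior and 661 ± 28.2 in central cells, and the hindlimb factor Pitx1 442 ± 11.2 and 456 ± 37.5.

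Star, whose product delivers cholesterol into mitochondria, was read in all libraries at a similar level. Anterior replicates 1 and 2 had 444 and 250 counts, and central replicates 1 and 2 had 301 and 385. The highest and the lowest value were both anterior, so the groups overlapped. The means were 10.9 ± 3.39 CPM in anterior and 10.8 ± 1.5 CPM in central cells. The log2 ratio of these means was 0.01, with a sign that changed when anterior replicate 1 (-0.34) or central replicate 1 (-0.12) was left out.

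Cyp11a1, which encodes the enzyme of the first committed step, was near the floor. Both anterior libraries had 2 counts, under the floor, and both central libraries had 12. The groups did not overlap, and the mean was 0.0641 ± 0.0058 CPM in anterior and 0.38 ± 0.013 CPM in central cells. The ratio of summed counts, central over anterior, was 5.95 with an exact 95% interval of 2.05 to 23.6. Counted as read pairs the interval widened to 1.33 to 54.8. These exact (Clopper-Pearson) intervals, conditional on the summed count, do not include the spread between libraries. In bulk RNA, fewer cells of a type and less RNA per cell cannot be told apart, here and in all that follows.

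Hsd3b6 carried nearly all of the signal of the chromosome 3 cluster. It had 646 and 1046 counts in anterior replicates 1 and 2, and 2 and 0 counts in the central replicates. Both anterior libraries were far above both central ones, which lay under the floor. In CPM, these were 19.4 and 35.7 for anterior and 0.0649 and 0 for central cells. Over the groups this gave 27.5 ± 11.5 against 0.032 ± 0.046 CPM.

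The ratio of summed Hsd3b6 counts, anterior over central, was 852, and its exact 95% interval ran from 236 to 7045. Counted as pairs, 846 against 1, the interval ran from 153 to 33709. Set against the floor of 3 counts per central library, the anterior mean was 289 times as high. The central denominator is so small that only the order of magnitude is known. Leaving out anterior replicate 1 or 2 moved the multiple of the floor to 376 or 205.

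**Figure D1:**
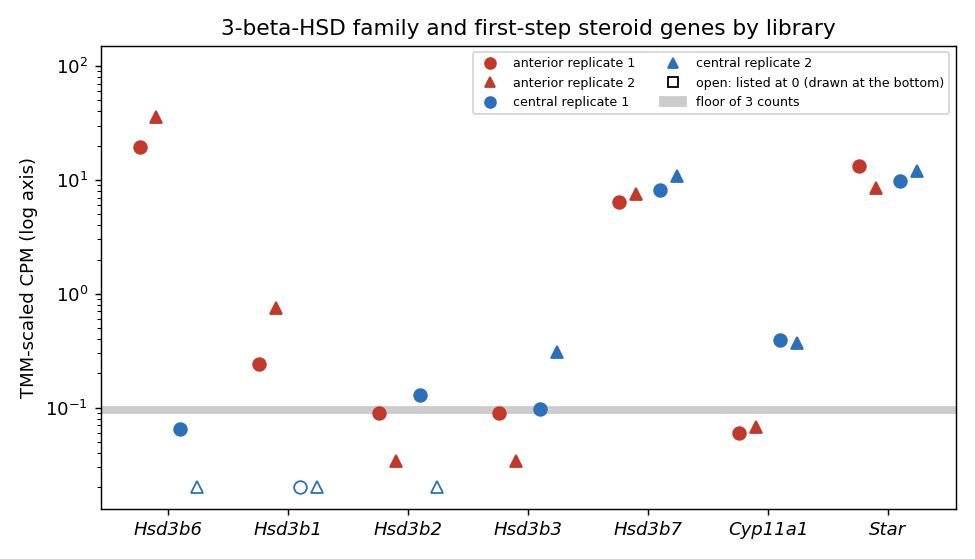
TMM-scaled CPM (log axis) of the 7 genes in each of the 4 libraries, with anterior libraries in red, central in blue, circles for replicate 1 and triangles for replicate 2. Values of 0 are drawn as open symbols at the bottom and the grey band marks the floor of 3 counts. Hsd3b6 stands at 19.4 and 35.7 CPM in the anterior libraries and under the band in the central ones, whereas Hsd3b7 and Star lie between 6.45 and 13.3 CPM in every library.

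Hsd3b1, the isoform known from adrenal and gonad, showed the same direction at a much lower level. Anterior replicates 1 and 2 held 8 and 22 Hsd3b1 counts, and neither central library held any. Its anterior mean of 0.49 ± 0.36 CPM was 5.21 times the floor of 3 counts per central library. The anterior libraries taken singly stood at 2.52 (replicate 1) and 7.89 (replicate 2) times this floor. These multiples are not lower limits of a ratio. For every 100 Hsd3b6 counts there were 1.24 Hsd3b1 counts in anterior replicate 1 and 2.1 in anterior replicate 2. Whether part of these counts came from Hsd3b6 fragments was not tested. The 100-base stretch printed above is the most alike of the coding windows compared, which differed at a median of 9 bases. No 100-base stretch of the Hsd3b1 transcript occurred in a transcript of another gene.

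The copies known from kidney and liver were at or near the floor. Hsd3b2 had 3 and 1 counts in anterior and 4 and 0 in central cells, and Hsd3b3 had 3 and 1 counts in anterior and 3 and 10 in central cells. The ratio of summed counts, central over anterior, was 3.23 for Hsd3b3 (exact 95% interval 0.996 to 13.6), and for Hsd3b2 the ratio, anterior over central, was 1.01 (0.188 to 5.41). Counted as pairs, the intervals were 0.532 to 30.2 for Hsd3b3 and 0.073 to 13.9 for Hsd3b2. Both genes have too few counts to describe a difference. Hsd3b4 and Hsd3b5, which encode reductases of the same family, were also read from the table: Hsd3b4 had 2 counts in central replicate 1 and none elsewhere, and Hsd3b5 was listed at 0 in all libraries. Every 100-base stretch of Hsd3b4 also occurred in other transcripts, Gm10681 and Gm4450 among them, so its counts could have been lost.

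Of the counts given to the 6 Hsd3b genes on chromosome 3, Hsd3b6 took 97.9% in anterior replicate 1 (646 of 660, 95% Wilson interval 96.5% to 98.7%) and 97.8% in anterior replicate 2 (1046 of 1070, 96.7% to 98.5%). In the central libraries it took 2 of 11 and 0 of 10 counts. The Wilson intervals take each count as a fragment of its own and would be wider over read pairs.

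Hsd3b7 works on a different substrate, as the oxidoreductase that acts on hydroxylated cholesterol in bile acid synthesis. It was read in all libraries, with 215 and 220 counts in anterior and 252 and 352 in central cells. Both anterior values lay below both central values. The means were 6.97 ± 0.74 CPM in anterior and 9.53 ± 1.9 CPM in central cells, a log2 ratio of -0.45 that ranged from -0.64 to -0.23 when each library was left out in turn. All 2075 exonic bases of Hsd3b7 are also annotated, in GENCODE M21, to the antisense gene 9430064I24Rik or the same-strand gene Gm49388. Neither symbol is in the count table, and whether the counting used strand is not given in the sources used here, so its counts may include reads from these genes.

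Per kilobase of exon, the order of the levels in anterior cells was Hsd3b6, Hsd3b7, Star, Hsd3b1, and then the genes near the floor. Hsd3b6 reached 10.7 and 19.8 CPM per kb in the anterior libraries. Hsd3b7 was at 3.11 and 3.61 CPM per kb there and Star at 3.24 and 2.07, so these neighbours in the order overlapped. In central cells Hsd3b7 (3.94 and 5.24 CPM per kb) lay above Star (2.38 and 2.89). Central Cyp11a1 was at 0.163 and 0.155 CPM per kb.

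Of the 7 genes, 4 (Hsd3b6, Hsd3b7, Cyp11a1 and Star) passed the filter on low counts, which a gene could pass through the group in which it is high. Among all 14610 genes that passed, the values of the 2 populations did not overlap for 63.5%, with anterior higher for 30.8% and lower for 32.6%. Non-overlap of the groups was seen for 5 of the 7, with Hsd3b6 and Hsd3b1 higher and Hsd3b7, Hsd3b3 and Cyp11a1 lower in anterior cells. Hsd3b1 and Hsd3b3 had not passed the filter, so this count and the 63.5% come from unlike sets. The Hsd3b3 groups, tied at 3 counts, were separated by scaling alone. Since this contrast guided the choice of the genes, nothing is read from that count.

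The genes around Hsd3b6 on chromosome 3 did not share its pattern. Of the 5 annotated coding genes nearest on each side that are not named Hsd3b, Hao2, the nearest on the far side of Hsd3b1, had 0 and 0 counts in anterior and 1 and 2 in central cells. Zfp697 measured 22.2 ± 1.09 against 23.7 ± 0.71 CPM and was not called (edgeR adjusted p 0.605). Zfp697 exons overlap those of Hsd3b2 by 99 and of Hsd3b3 by 281 bases on the opposite strand, which adds to the doubt about these low counts. Gm10681 and Gm4450 were listed at 0 throughout. Of their 100-base stretches, 100% and 71.9% also occurred in other transcripts, Hsd3b4 and Hsd3b5 among them, so their counts could have been lost. Of 14610 genes tested (edgeR, quasi-likelihood, p adjusted by Benjamini and Hochberg's method over all of them), 22.9% were called at an adjusted p under 0.05, with 10.7% higher and 12.3% lower in anterior cells.

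Among these neighbours, Tbx15, a T-box factor of limb and skin mesenchyme, was lower in anterior cells, with 7711 and 6999 counts against 11123 and 11826 (log2 fold change -0.63 ± 0.06 SE, edgeR adjusted p 0.000138). Spag17, a cilium gene, was also lower, with 16 and 13 counts against 96 and 111 (log2 fold change -2.81 ± 0.40 SE, edgeR adjusted p 0.00149). Wdr3 was called higher by 0.29 on the log2 scale with an edgeR adjusted p of 0.0494, and this call was lost in 6 of 13 alternatives (adjusted p 0.00312 to 0.17). Phgdh and Wars2 were not called (edgeR adjusted p 0.0637 and 0.539).

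**Figure D2:**
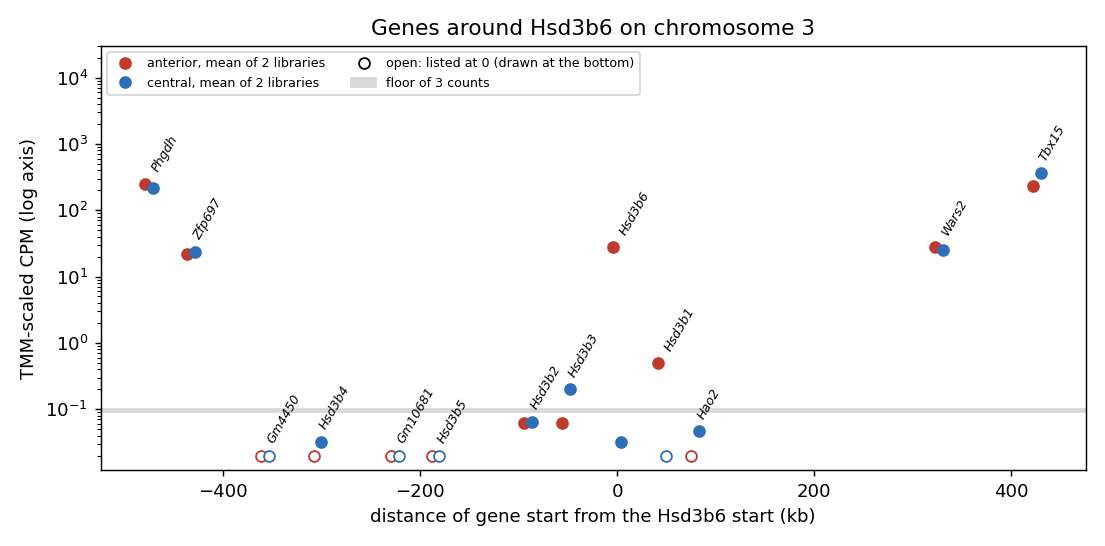
Mean TMM-scaled CPM (log axis) of annotated coding genes around Hsd3b6, against the distance in kb between each gene's start and that of Hsd3b6, with anterior in red and central in blue. Open symbols at the bottom are means of 0 and the grey band is the floor of 3 counts. Spag17 and Wdr3 lie beyond the plotted range. Among the genes drawn, Hsd3b6 alone has an anterior mean above 1 CPM and a central mean under the floor.

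The genes with the profile most like Hsd3b6 were found by the Euclidean distance between log2(CPM + 0.5) values centred on each gene's mean, over the 4 libraries and all genes that passed the filter. Among the 10 nearest were, in order, Alas2, Ermap, Kel, Epb42, Hemgn, Trim10, Car2 and Rhag, at distances of 0.77 to 1.77. Of the 10, 7 are in the list of primitive erythroid markers (Hemgn, Trim10 and Car2 are not). Alas2, which encodes the first enzyme of heme synthesis in red cells, had 1480 and 2948 counts in anterior and 57 and 52 in central cells. Kel, a red cell surface antigen, had 349 and 744 against 4 and 4, and Epb42, encoding a protein of the red cell membrane skeleton, had 277 and 568 against 2 and 2. Hsd3b6 was picked for its difference between these populations, so any gene near it in profile had to be high in anterior cells too. With 4 libraries, this likeness is a description.

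**Figure D3:**
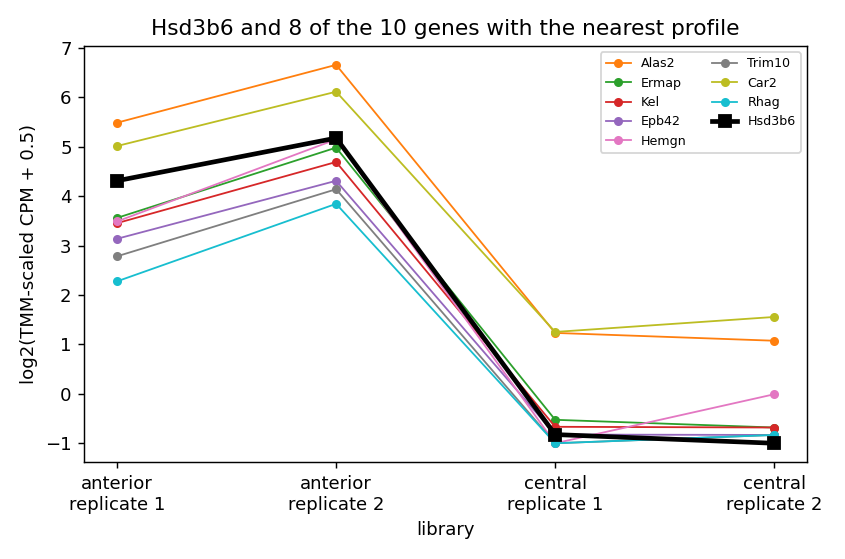
log2(TMM-scaled CPM + 0.5) of Hsd3b6 (thick black line, squares) and of 8 of the 10 genes at the smallest profile distance (thin lines) in the 4 libraries. Lines only join the values of a gene, and replicates have no order. All genes drawn are high in both anterior libraries, higher in anterior replicate 2 than in 1, and low in both central libraries.

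Like Hsd3b6, most genes of the erythroid list, chosen with earlier results of these data known, were higher in anterior cells. Of the 18 listed primitive erythroid genes, 17 were in the table and 15 were tested. By edgeR 14 of them were called higher, beside 10.7% of all genes tested, and 14 by DESeq2 and 11 by limma-voom. The median log2 fold change of the tested ones was 7.68, against -0.01 over all genes tested. Their summed level was 3397 and 8606 CPM in the anterior libraries and 51.6 and 52.3 CPM in the central ones. Most of the central sum was Tmcc2, which was the tested member not called (40.9 ± 1.84 CPM in central cells). Hbb-y, an embryonic globin, reached 64770 and 142766 counts in anterior and 46 and 118 in central cells. The adult globins Hba-a1 and Hba-a2 were listed at 0 in every library. How multiply mapped reads were handled is not given, so these zeros may not mean that the genes were silent.

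Hsd3b6 stood at 0.997 counts per 100 Hbb-y counts in anterior replicate 1 and 0.733 in anterior replicate 2. The ratio of CPM in anterior replicate 2 to that in replicate 1 was 1.84 for Hsd3b6. For the 14 erythroid genes with at least 100 counts in both anterior libraries, the ratio ranged from 1.06 (Tmcc2) to 3.5 with a median of 2.55. Hsd3b6 thus moved in the same direction between the anterior libraries as these genes, by less than their median. The part of erythroid cells in the Hsd3b6 difference was not tested.

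Other cell types known to express Hsd3b genes, or present in limb buds, were read from fixed marker lists. Of 10 trophoblast genes, 9, including Prl3d1, Prl3b1, Tpbpa and Gcm1, were listed at 0 in every library, and Plac1 was the exception (1.88 ± 0.055 against 1.2 ± 0.69 CPM, edgeR adjusted p 0.389). Their summed level was 1.84 to 1.92 CPM in anterior and 0.711 to 1.69 CPM in central libraries. Of 10 adrenal and gonad genes, 6, among them Nr5a1, Cyp17a1, Cyp21a1 and Cyp11b1, had at most 3 counts in every library. The adrenal and gonad sum was 9.95 to 10.8 CPM in anterior and 14.8 to 15.4 CPM in central libraries, most of it from Inha and Amh. Hepatocyte genes summed to at most 0.42 CPM in the anterior libraries, and to 0.357 and 1.61 CPM in central replicates 1 and 2. Afp had 40 counts in central replicate 2 and none elsewhere.

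Macrophage genes were also higher in anterior cells, in 5 of 8 by edgeR and by limma-voom and in 4 by DESeq2, with sums of 18.7 to 23.2 against 7.69 to 7.99 CPM. Their sum was lower in anterior replicate 2 than in replicate 1, unlike that of the erythroid genes. Of 8 endothelial genes, 4 were called lower in anterior cells (sums 13.4 to 19.8 against 36.3 to 45.2 CPM). Surface ectoderm genes were lower in 8 of 10 by edgeR, 7 by DESeq2 and 4 by limma-voom, whereas Tfap2a was higher, and the ectoderm sums overlapped (59.1 to 70.5 against 69.5 to 176 CPM). Over all genes tested, edgeR called 10.7% higher and 12.3% lower. The part of macrophage, endothelial and ectoderm cells in the differences of the steroid genes was not tested.

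The rest of the steroid pathway was read from lists of 101 further genes, of which 97 were in the table and 66 were tested. By edgeR, 12 of the 66 were called higher and 8 lower in anterior cells, or 30.3%, beside 22.9% of all genes. Their median log2 fold change was 0.03, against -0.01 over all genes tested. Leaving out a single anterior library lowered the count of 20 to 13 (without replicate 1) or 11 (without replicate 2).

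Downstream of the 3-beta-dehydrogenases, few enzymes of hormone synthesis were read. Of 12 genes of later synthesis, 3 passed the filter and 6 had at most 3 counts in every library. The 17-alpha-hydroxylase gene Cyp17a1 had 2 counts in central replicate 2 and none elsewhere, and the aromatase gene Cyp19a1 had 2 counts in central replicate 1 and none elsewhere. Nr5a1, encoding the steroidogenic regulator SF-1, had 2 counts in central replicate 1 and none elsewhere. Hsd17b12, better known from fatty acid elongation, rose from 75.6 ± 3.43 CPM in central to 105 ± 6.13 CPM in anterior cells (log2 fold change 0.48 ± 0.08 SE, edgeR adjusted p 0.00285). The anterior libraries, high in Hsd3b6, thus held 2 counts each of Cyp11a1, which acts before it, and none of Cyp17a1, which acts after it.

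Genes for electron transfer and cholesterol import were expressed in both populations. Of 10, 2 were called higher and 1 lower, beside 10.7% higher and 12.3% lower over all genes tested. Tspo, encoding an outer mitochondrial membrane protein, measured 15.1 and 19.5 CPM in anterior and 6.79 and 7.51 CPM in central cells (log2 fold change 1.27 ± 0.18 SE, edgeR adjusted p 0.00143). Stard4, a cytosolic sterol carrier, rose by 0.42 on the log2 scale (edgeR adjusted p 0.00662). Por, the electron donor of microsomal P450 enzymes, measured 124 ± 4.49 CPM in anterior and 145 ± 5.95 CPM in central cells and was called lower by edgeR at an adjusted p of 0.0486 (log2 fold change -0.22), a call lost in 6 of 13 alternatives (adjusted p 0.0154 to 0.36), among them the replicate block (0.0555). The mitochondrial electron carriers Fdx1 and Fdxr, which serve the Cyp11a1 enzyme, and Stard3 were not called (edgeR adjusted p 0.412, 0.687 and 0.081).

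Of 27 cholesterol synthesis and uptake genes, all were tested, and 19 were not called. By edgeR 8 were called higher and 0 lower in anterior cells, or 29.6% called, beside 10.7% higher and 12.3% lower over all genes tested (also 8 and 0 by DESeq2 and by limma-voom). At an unadjusted p under 0.05, 11 were higher and 2 lower. The median log2 fold change was 0.14, against -0.01 over all genes tested. Idi1, an isoprenoid isomerase, measured 46.3 and 50.3 CPM in anterior and 30.7 and 36.9 CPM in central cells and rose by 0.51 ± 0.11 (SE, edgeR adjusted p 0.0109). Hsd17b7, a sterol reductase of cholesterol synthesis, rose by 0.46 ± 0.08 (SE, edgeR adjusted p 0.0053). Nsdhl, a sterol dehydrogenase related to the Hsd3b enzymes, measured 41.2 ± 2.4 against 35.0 ± 1.55 CPM and was not called (edgeR adjusted p 0.109).

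Among genes of steroid inactivation and conjugation, 10 were in the table and 6 were tested. By edgeR 3 were called lower and 0 higher, beside 12.3% lower and 10.7% higher over all genes tested. The counts were 3 and 0 by DESeq2 and limma-voom, and 4 and 0 at an unadjusted edgeR p under 0.05. Sult2b1, named after its values were seen, alone had a positive change and was not called. It had 27 and 27 counts in anterior and 11 and 17 in central cells (log2 fold change 0.96, edgeR adjusted p 0.264). Hsd11b2, which inactivates glucocorticoids, fell most, with 2682 and 2535 counts in anterior and 4996 and 6377 in central cells. This was 83.4 ± 4.24 against 180 ± 24.6 CPM, which on the log2 scale fell by 1.11 ± 0.10 (SE, edgeR adjusted p 9.56e-05). Hsd17b4 and Hsd17b10, enzymes of peroxisomal and mitochondrial oxidation, fell by 0.26 and 0.30 on the log2 scale (edgeR adjusted p 0.0323 and 0.0358), and each call was lost in 3 of the 4 fits that left out a library.

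Among regulators of steroidogenic tissues, 6 of 14 were tested. Of these, edgeR called 1 higher and 3 lower, beside 10.7% higher and 12.3% lower over all genes tested. Cited2, a transcriptional co-regulator, measured 193 ± 6.73 CPM in anterior and 136 ± 0.83 CPM in central cells and was called higher (edgeR adjusted p 0.000727). Gata6 fell by 1.02 ± 0.29 (SE) on the log2 scale, with means of 2.57 ± 0.66 CPM in anterior and 5.2 ± 0.14 CPM in central cells (edgeR adjusted p 0.035), and its call was lost without anterior replicate 1 (0.161) or central replicate 1 (0.066), within 0.0135 to 0.161 over the alternatives. Wt1, named after its values were seen, was also called lower and had 2 and 0 counts against 50 and 46. All of these genes also act outside steroidogenic tissue.

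None of the 8 tested steroid receptor genes was called by edgeR, DESeq2 or limma-voom, and 1 had an unadjusted edgeR p under 0.05. That gene was Nr3c1, the glucocorticoid receptor, at 44 and 66 counts in anterior and 138 and 82 in central cells (log2 fold change -0.98 ± 0.41 SE, edgeR adjusted p 0.128, and 0.0268 without central replicate 2 in a range of 0.0268 to 0.532). Esr1 and Pgr, the estrogen and progesterone receptors, had edgeR adjusted p of 0.872 and 0.464.

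The bile acid and oxysterol genes set Hsd3b7 in its pathway. Of 14, 7 were tested, 0 were called higher and 1 lower by edgeR, DESeq2 and limma-voom alike, and at an unadjusted p under 0.05 there were 1 higher and 2 lower. Cyp7a1, the rate-limiting enzyme of classical bile acid synthesis, was listed at 0 in every library. Cyp7b1 and Cyp27a1, of the alternative route, were read but not called, with 46 and 41 against 82 and 82 counts for Cyp7b1 (edgeR adjusted p 0.103) and 538 and 550 against 423 and 444 for Cyp27a1 (edgeR adjusted p 0.115). The gene called lower was Cyp46a1, a cholesterol 24-hydroxylase named after its values were seen, with 14 and 7 against 55 and 38 counts (log2 fold change -2.14 ± 0.57 SE, edgeR adjusted p 0.027).

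**Figure D4:**
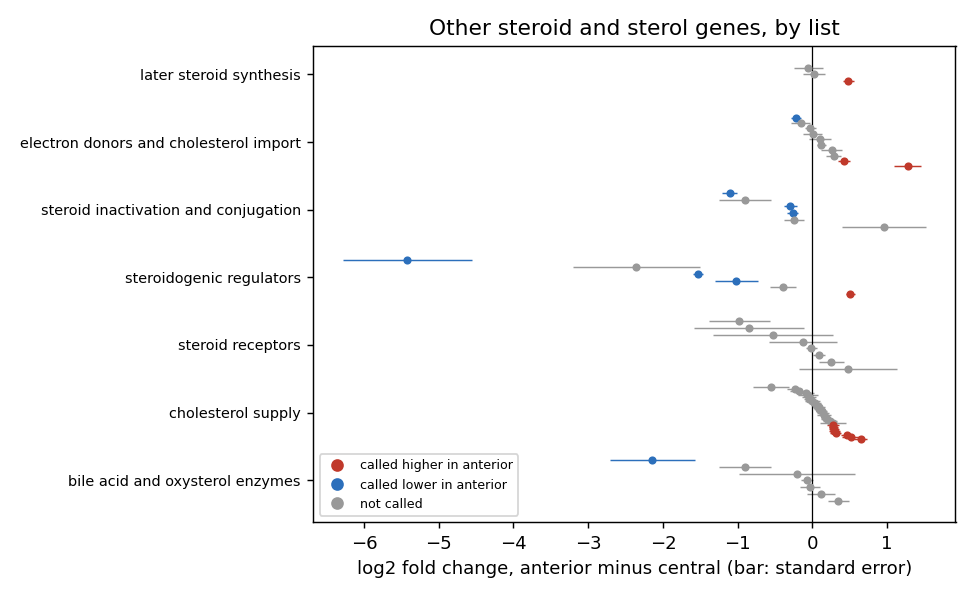
log2 fold change, anterior minus central, with its standard error, for the 66 tested genes of the pathway lists, the 7 genes of the opening left out; a gene in several lists is drawn in each. Red points were called higher and blue points lower by edgeR at an adjusted p under 0.05, and grey points were not called. Cholesterol supply, the list with the most genes, has 8 red points of 27, and steroid receptors have grey points only.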

How the data were processed

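The authors deposited 1 table of raw read counts per gene symbol. Per the submitters' processing notes, STAR 2.7.9a, HTSeq and the mm10 build were used. The annotation, strand setting and handling of multiply mapped reads are not given in the sources used here, so shared reads between Hsd3b copies may have been dropped or misplaced. Columns were matched to samples by the domain and number in the titles, and 0 per-sample columns were unmatched. In R 4.3.3, the filterByExpr rule of edgeR 4.0.16 chose the genes, TMM scaled the libraries, and quasi-likelihood F tests compared the populations, with p adjusted by Benjamini and Hochberg's method over all 14610 genes, at 0.05, with 2 residual degrees of freedom. The standard error is the absolute log2 fold change divided by the square root of F. The labels do not say whether libraries came from separate embryos, so p-values measure only the spread between these samples. Alternatives used DESeq2 1.42.0 and limma 3.58.1. The test script was checked on simulated counts. Positions, exon lengths and transcript sequences are from GENCODE M21 (GRCm38), and 24366 of the 25239 symbols matched it. Coding sequences were aligned globally with Biopython 1.88.

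The genes, lists and promoter motifs were chosen with earlier results of these data known. Genes named were the 7 of the opening, the other Hsd3b symbols, up to 3 called genes with the largest change in each direction per pathway list with a mean of at least 1 CPM, 16 fixed genes of which some are given by count only, the 5 nearest coding neighbours per side, the 10 nearest profiles and genes of the marker lists. Some genes that this rule names are not reported here. The megakaryocyte and mast cell list had 1 of 6 tested genes called lower.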

Additional observations from a re-analysis of the deposited data

How the results depend on the processing

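The count of all genes called (3351) stayed within 1.5 times under other scalings, filters and tests (2957 to 3864). These settings included halved counts, removal of the listed erythroid genes and the replicate block. In the same settings the count of listed steroid and sterol genes (20) stayed within 18 to 20. Removing the listed erythroid genes leaves other red cell genes in the counts, so it does not test the part of red cells. Replicate numbers are shared between populations, but nothing in the labels says that they pair libraries, and the replicate differences correlated at 0.064 across genes. With the replicate block, 3586 genes and 19 listed genes were called. Leaving out each library in turn gave 2009 to 3697 genes (2009 without anterior replicate 2), 11 to 19 listed genes, and an Hsd3b6 anterior mean of 205 to 376 times the central floor. These fits leave a lone library in a group, which is assumed to vary like the others. Halving the counts with the same floor of 3 moved the Hsd3b6 multiple from 289 to 144, by construction. No value of this multiple exists under the block, DESeq2's test or limma-voom, which do not change how it is computed, and the tests of Hsd3b6 itself are not given because the gene was chosen by this contrast.

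The Star log2 ratio of mean CPM, near 0, changed sign with library totals alone (-0.015) and with a mean count of at least 50 (-0.0029), and ranged from -0.34 to 0.30 when each library was left out. In the same fits, uncalled genes near 0 changed sign: Esr1 (-0.93 to 0.38), Ptprc (-0.23 to 0.015) and Tek (-0.071 to 0.27). The cause was not tested. Of 75 genes followed across the alternatives, 62 kept direction and call in all settings that used every library, and 52 also when each library was left out. At this depth, genes at or under 3 counts in both groups have no bounded ratio.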
